A study of Homo sapiens with 12 samples.

Results

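The retinoic acid receptors and the proteins that bind, make and clear retinoic acid were followed through 10 genes, chosen by name from the deposited count table of 59251 genes. They are the receptor genes RARA, RARB, RARG and RXRA, the retinoic acid binding protein gene CRABP2, the clearance enzyme genes CYP26A1 and CYP26B1, the retinal reductase gene DHRS3, and the retinol oxidation genes DHRS9 and RDH10. Their RNA was measured by RNA-Seq in HL60, a line of human myeloid leukemia cells that lacks the PML-RARA fusion. Non-treated cells served as controls for 3 treatments of 48 h, namely all-trans retinoic acid (ATRA) at 1 µM, palbociclib at 1 µM, which inhibits CDK4 and CDK6 and is called CDK4/6i, and both at these doses, called CDK4/6i+ATRA. Each of the 4 groups had 3 libraries labelled as biological replicates, 12 in all. All groups were the same cell line, so the values describe 1 line at 1 time point, and p-values measure the spread between these libraries.

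Retinol from the circulation is oxidized in cells to retinal by retinol dehydrogenases and then to retinoic acid by retinal dehydrogenases. Retinoic acid binds the retinoic acid receptors (RARs), which sit on DNA as heterodimers with the retinoid X receptors (RXRs) and exchange corepressors for coactivators when the ligand is bound. Its level is limited by CYP26 enzymes, which oxidize it, and by DHRS3, which turns retinal back to retinol, and genes for several of these proteins are classical targets of the receptors. In myeloid cells, ATRA acts mainly through RARA and drives granulocytic differentiation.

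RAR-RXR heterodimers bind retinoic acid response elements, of which the best known is a direct repeat of a hexamer with 5 bases between the copies (DR5). The consensus half-site AGGTCA, the half-sites of the RARB element, which are GGTTCA on its left side and on its right side AGTTCA, and the further variant GGGTCA were searched on both strands, and any of them was allowed in either copy. RefSeq promoter windows (GRCh38.p14) run from 250 bases before to 50 bases after each listed start, and matched 9 of the 10 genes with 21 starts. The nearest repeat of each gene that holds one within 5000 bases of a start is shown because these letters are what a receptor dimer would contact. The half-sites are in capitals and the spacer is in lower case, written 5′ to 3′ on the strand named, with hg38 positions.
RARB, 53 bases before a start, plus strand, chr3:25428210-25428226: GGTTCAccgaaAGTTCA
CYP26A1, 90 bases before a start, minus strand, chr10:93073803-93073819: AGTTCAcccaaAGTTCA
DHRS9, 338 bases after a start, minus strand, chr2:169069901-169069917: AGGTCAcaccgAGGTCA
RARA, 513 bases before a start, plus strand, chr17:40341653-40341669: AGTTCAgcgagAGTTCA
DHRS3, 615 bases after a start, minus strand, chr1:12595982-12595998: GGTTCAgccacAGGTCA
RXRA, 3777 bases before a start, plus strand, chr9:134375518-134375534: GGTTCAtctgaGGGTCA
The RARB and CYP26A1 repeats lay inside the promoter windows. The RARB element supplied 2 of the half-sites searched, so its own match was fixed by the choice of letters and is no finding. Such a repeat was found in the windows of 31 of 35116 starts (0.0883%). A window of 5000 bases on each side was added after seeing the data. In it, 8 repeats lay near 6 of the 9 genes (5 of 8 without RARB), including 3 near CYP26A1. By starts this was 9 of 21 against 828 of all 35116 (2.36%), and by genes 6 of 9 against 691 of 27305 (2.53%). The genes were chosen for their part in the retinoid pathway and have more starts per gene, so the contrast is a description only. No DR5 of these letters lay within 5000 bases of a RARG, CRABP2 or CYP26B1 start. By the exons of the count table, the RARA, RARB, RXRA and DHRS9 repeats were intronic, the DHRS3 repeat was exonic, and the CYP26A1 repeat shown was in an exon of a transcript that starts further upstream. A match is only a run of letters and shows no binding.
The RARB promoter is printed for its whole upstream part, the 250 bases before that start on the plus strand (chr3:25428013-25428262, RefSeq GRCh38.p14), because it carries the repeat next to the start, whereas RARB gave few counts in every group.
RARB promoter: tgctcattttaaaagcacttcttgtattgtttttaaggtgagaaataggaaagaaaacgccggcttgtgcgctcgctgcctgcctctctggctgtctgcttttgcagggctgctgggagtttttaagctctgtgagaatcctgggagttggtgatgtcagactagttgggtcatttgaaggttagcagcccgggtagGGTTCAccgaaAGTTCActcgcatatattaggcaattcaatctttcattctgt

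**Figure D1:**
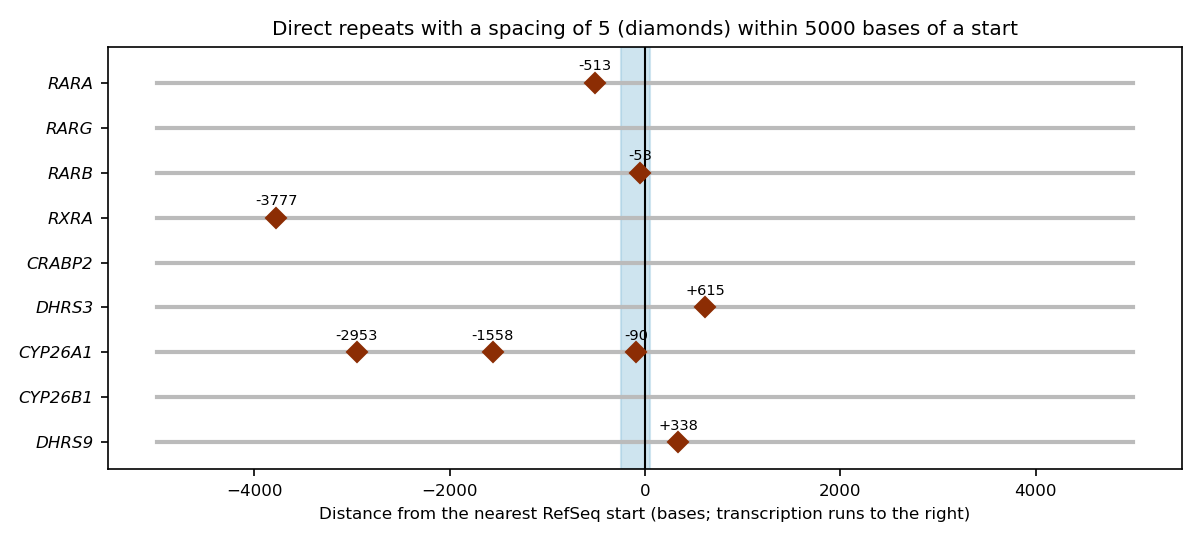
Positions of direct repeats with a spacing of 5 (diamonds) around the nearest RefSeq start of each of 9 genes, in bases from the start with transcription to the right; grey lines span 5000 bases on each side and the blue band is the promoter window. RARB and CYP26A1 hold a repeat inside the band, and RARG, CRABP2 and CYP26B1 hold none.

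Total counts ranged from 12230923 to 18679544 per library, and 13318 genes passed edgeR's expression filter. Levels are CPM, counts scaled to a common library total, normalized by edgeR's TMM method, and a change is a log2 fold change from edgeR's quasi-likelihood F test on all 12 libraries, called at a Benjamini-Hochberg adjusted p under 0.05. A level of 3 counts or fewer in every library of a group (3 counts were 0.156 to 0.275 CPM) was taken as not detectable at this depth; this covers counting error only. TMM factors were 0.84 to 0.893 in CDK4/6i+ATRA-treated cells and 1.03 to 1.07 elsewhere, and scaling by library size alone moved the median log2 change of all genes with CDK4/6i+ATRA from 0.02 to -0.25 (non-treated cells as reference), from 0.00 to -0.28 (CDK4/6i as reference) and from 0.04 to -0.26 (ATRA as reference). With that scaling the calls for all genes went from 5461 higher and 5424 lower to 4376 and 6431 against non-treated cells, from 5212 and 5261 to 3805 and 6554 against CDK4/6i, from 4920 and 4371 to 2956 and 6412 against ATRA, and from 3258 and 3594 to 1375 and 6061 for the interaction. The myeloid markers MPO, CD33 and SPI1 were measured in all 12 libraries, whereas ELANE, PRTN3 and AZU1, each listed on 2 contigs of the genome, had no count in any. The summed level of these 6 markers was 6735 to 7062 CPM in non-treated libraries, 818 to 860 CPM in ATRA libraries, 3892 to 4023 CPM in CDK4/6i libraries and 957 to 1005 CPM in CDK4/6i+ATRA libraries. MPO, the myeloperoxidase of promyelocyte granules, fell by 4.48 on the log2 scale with ATRA and fell by 7.86 with CDK4/6i+ATRA (edgeR adjusted p = 4.6e-47 and 9.2e-54), while SPI1, which encodes the myeloid factor PU.1, rose 1.54-fold and 2.83-fold (edgeR adjusted p = 2.9e-20 and 1.2e-36). Of 10 markers of other cells, 5 had no count in any library, and the summed level of that list ranged from 25.7 to 27.5 CPM in non-treated libraries, 33.0 to 33.7 CPM in ATRA libraries, 32.7 to 34.2 CPM in CDK4/6i libraries and 15.2 to 18.3 CPM in CDK4/6i+ATRA libraries, mostly from PECAM1. Both marker lists thus moved with the treatments, and their part in the results below was not tested.

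Of the 10 genes, 6 passed the expression filter (RARA, RARG, RXRA, DHRS3, DHRS9 and RDH10), and DHRS3 passed through the ATRA-containing groups alone, so that its rise over the groups without ATRA was fixed by the filter and is left out of the counts of those comparisons. The other 4 (RARB, CRABP2, CYP26A1 and CYP26B1) had at most 8 counts in any library and were not tested. With ATRA, RARA, RARG and DHRS9 rose and RXRA and RDH10 fell, so the 5 remaining genes were called, against 67.6% of all genes tested (32.1% higher and 35.5% lower). In 70.3% of all genes the ATRA and non-treated libraries did not overlap, which is the background for the separations described here. CDK4/6i alone raised RARG, RXRA and DHRS9, 3 of the 5, against 56.2% of all genes (28.3% higher and 27.9% lower, and 60.7% without overlap). CDK4/6i+ATRA changed the 5 genes in the same directions as ATRA, against 81.7% of all genes called relative to non-treated cells (41.0% higher and 40.7% lower, and 81.8% without overlap) and 78.6% relative to CDK4/6i (39.1% higher and 39.5% lower, and 78.9% without overlap). Compared with ATRA, where DHRS3 was measured in both groups, CDK4/6i+ATRA was higher for RARA, RARG, DHRS3, RXRA and DHRS9 and lower for RDH10, of which RXRA lost its call and DHRS9 its direction with library size alone, against 69.8% of all genes (36.9% higher and 32.8% lower, and 71.9% without overlap). The comparisons share control libraries and are not independent of each other. In bulk RNA, fewer cells that express a gene and less RNA per cell cannot be told apart.

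**Figure D2:**
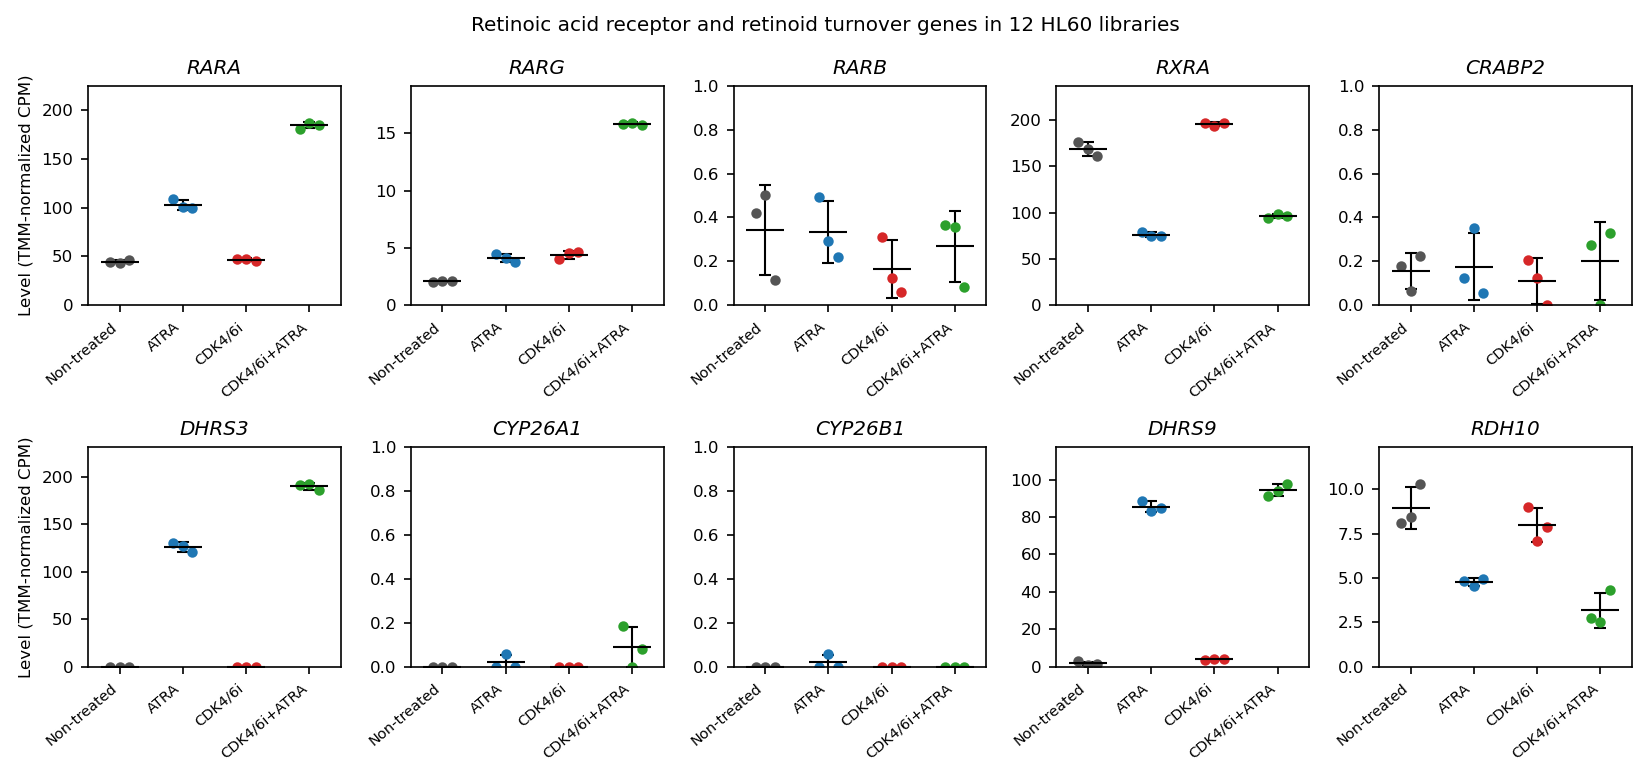
Level of each of the 10 genes in TMM-normalized CPM (vertical axis from 0, a separate scale for each gene) in the 3 libraries of each group (points), with the mean and SD (bars). RARA, RARG and DHRS3 are highest with CDK4/6i+ATRA, DHRS9 is high in both ATRA-containing groups, RXRA and RDH10 are lower in both ATRA-containing groups, and RARB, CRABP2, CYP26A1 and CYP26B1 reach at most 0.502 CPM.

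RARA (chromosome 17, 40309180 to 40357643, plus strand), the RAR through which ATRA mainly acts in myeloid cells, stood at 43.8, 43.3 and 46.1 CPM in the non-treated libraries. It was at 109, 101 and 99.8 CPM with ATRA, at 47.8, 47.0 and 45.1 CPM with CDK4/6i, and at 181, 187 and 185 CPM with CDK4/6i+ATRA. The ATRA and CDK4/6i+ATRA libraries lay above all others without overlap, and the CDK4/6i libraries overlapped the non-treated ones. RARA thus rose by a log2 fold change of 1.21 (SE 0.0483, edgeR adjusted p = 1.7e-27) with ATRA and of 2.06 (SE 0.0475, edgeR adjusted p = 4.2e-38) with CDK4/6i+ATRA. For CDK4/6i alone the log2 change was 0.07 (95% confidence interval -0.03 to 0.18, edgeR adjusted p = 0.256). Adding CDK4/6i to ATRA raised RARA 1.79-fold (log2 0.84, SE 0.0430, edgeR adjusted p = 3.8e-23). The interaction, which is the log2 effect of ATRA in the presence of CDK4/6i minus its effect in the absence, was 0.77 (SE 0.0681, edgeR adjusted p = 8.0e-14), as ATRA added 1.98 to the log2 level in CDK4/6i-treated cells. Of the RARA exons, 751 bases overlap the antisense gene RARA-AS1, which had 23 counts in all libraries together.

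RARG (chromosome 12, 53210569 to 53232209, minus strand), a further RAR, was lower than RARA per kilobase in every group and had 34, 34 and 37 raw counts in non-treated cells. It had 73, 70 and 69 counts with ATRA and 77, 74 and 79 with CDK4/6i. CDK4/6i+ATRA-treated cells had 173, 179 and 190. Each treatment lay above the non-treated libraries without overlap, and the ATRA and CDK4/6i libraries lay close together at 4.13 ± 0.346 and 4.38 ± 0.338 CPM (SD, n = 3). RARG rose 1.97-fold with ATRA (log2 0.98, SE 0.185, edgeR adjusted p = 7.3e-06) and 2.09-fold with CDK4/6i (log2 1.06, SE 0.182, edgeR adjusted p = 1.9e-06). With CDK4/6i+ATRA it reached 15.8 ± 0.129 CPM (SD, n = 3), 7.57-fold above non-treated cells (log2 2.92, SE 0.158, edgeR adjusted p = 1.5e-22). RARG was therefore 3.84-fold higher with CDK4/6i+ATRA than after ATRA treatment (log2 1.94, SE 0.140, edgeR adjusted p = 2.0e-17), and the interaction was 0.88 (SE 0.238, edgeR adjusted p = 0.00165).

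RXRA (chromosome 9, 134326455 to 134440585, plus strand), the shared heterodimer partner of the RARs, was the highest of the receptors per kilobase in non-treated cells, where its levels were 176, 168 and 161 CPM. ATRA gave 78.9, 74.3 and 75.3 CPM, CDK4/6i gave 197, 193 and 198 CPM, and CDK4/6i+ATRA gave 94.3, 98.2 and 96.6 CPM. No 2 groups overlapped, with CDK4/6i the highest and ATRA the lowest. RXRA fell by 1.15 on the log2 scale with ATRA (SE 0.0419, edgeR adjusted p = 5.1e-29) and fell by 0.81 with CDK4/6i+ATRA (SE 0.0429, edgeR adjusted p = 8.4e-23). It rose 1.16-fold with CDK4/6i (log2 0.22, SE 0.0384, edgeR adjusted p = 3.6e-06). The rise of 0.34 from ATRA to CDK4/6i+ATRA (SE 0.0460, edgeR adjusted p = 6.3e-09) was 0.03 with an adjusted p of 0.505 when libraries were scaled by size alone. The interaction of 0.12 (95% confidence interval 0.00 to 0.24) had an edgeR adjusted p of 0.0810 and turned to -0.20 with an adjusted p of 0.00381 under that scaling, and it was 0.15 with an adjusted p of 0.0377 without non-treated replicate 3.

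RARB (chromosome 3, 24829321 to 25597932, plus strand), the RAR known for its DR5-driven promoter, gave 7, 8 and 2 counts in non-treated cells and 8, 5 and 4 with ATRA. With CDK4/6i it gave 6, 2 and 1 counts, and with CDK4/6i+ATRA 4, 4 and 1. All groups overlapped, and a change could not be detected at this depth. RARB exons share 28 bases with TOP2B on the opposite strand, which had 116644 counts in all, and whether the counts followed strand is not given in the sources used here.

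Per kilobase of the gene length in the table, RXRA exceeded RARA by a ratio of 6.28 ± 0.461 (SD, n = 3) in non-treated cells and 6.94 ± 0.257 with CDK4/6i. That length covers all exons listed for a gene and need not be that of the expressed transcript. Comparisons between genes rest on it. The ratio was 1.22 ± 0.0233 with ATRA and 0.862 ± 0.00313 with CDK4/6i+ATRA. By these lengths, 12106 bases for RARA and 7339 for RXRA, RARA was above RXRA in CDK4/6i+ATRA-treated cells only, in each of the 3 libraries. That order with ATRA rests on the lengths, since in raw counts the ratio was 0.726, 0.740 and 0.754 with ATRA. The groups of each of the 5 pairs tested did not overlap, with an exact two-sided permutation p of 0.1 for each, the smallest that 3 against 3 can give. This ratio is taken within a library and does not depend on the scaling. RARG made up 14.3% ± 0.383 (SD, n = 3) of the summed level of RARA, RARB and RARG per kilobase in non-treated cells and 12.6% ± 0.428 with ATRA. Its share was 25.3% ± 2.12 with CDK4/6i and 23.7% ± 0.276 after the combined treatment. These shares also rest on the lengths (3330 bases for RARG). In raw counts summed over 3 libraries, RARG had 105 beside 2236 for RARA in non-treated cells and 212 beside 5294 with ATRA. RARG had 230 beside 2461 with CDK4/6i and 542 beside 6318 with CDK4/6i+ATRA. The CDK4/6i and CDK4/6i+ATRA shares overlapped (exact permutation p = 0.4), while every other pair tested was separate (exact permutation p = 0.1).

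**Figure D3:**
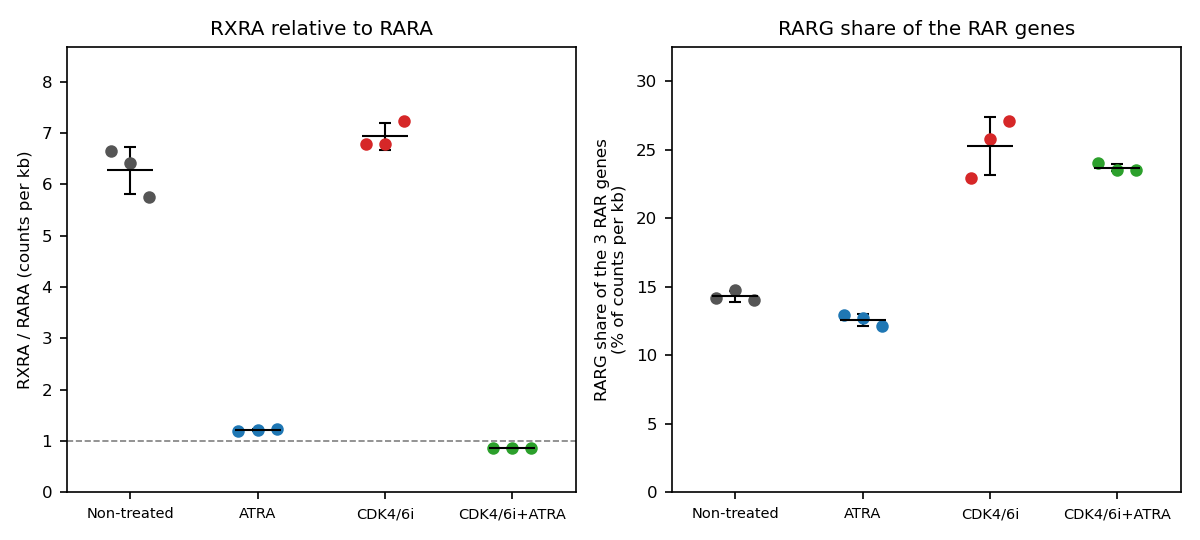
Left, ratio of RXRA to RARA in counts per kilobase; right, RARG as a percentage of the 3 RAR genes per kilobase. Points are the 3 libraries of each group and bars the mean and SD; the dashed line marks equal levels per kilobase, and only the CDK4/6i+ATRA libraries lie below it, near 0.862. Both panels rest on the gene lengths, and in raw counts the ATRA ratios were 0.726 to 0.754.

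CRABP2 (chromosome 1, 156699606 to 156705784, minus strand), which carries retinoic acid to the nucleus, had 3, 1 and 4 counts in non-treated cells and 2, 6 and 1 with ATRA. CDK4/6i-treated cells had 4, 2 and 0 counts and CDK4/6i+ATRA-treated cells 3, 0 and 4. The groups overlapped and no difference was detectable. CYP26A1 (chromosome 10, 93073475 to 93077885, plus strand), which oxidizes retinoic acid and is a classical receptor target, had no count in non-treated or CDK4/6i-treated cells. It had 0, 1 and 0 counts with ATRA and 2, 0 and 1 with CDK4/6i+ATRA. CYP26B1 (chromosome 2, 72129238 to 72147862, minus strand), an enzyme of the same kind, had 1 count in ATRA replicate 2 and none in the other 11 libraries. Both CYP26 genes were therefore at or under the limit of detection in every group, also after 48 h of ATRA, and no fold is given.

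DHRS3 (chromosome 1, 12567910 to 12618210, minus strand), the reductase that returns retinal to retinol, had 2, 0 and 0 counts in non-treated cells and none with CDK4/6i. There were 2121, 2171 and 2178 counts with ATRA and 2091, 2158 and 2251 with CDK4/6i+ATRA. The ATRA-containing libraries were thus far apart from the others. Against the limit of 3 counts per library, DHRS3 was at least 703-fold higher with ATRA than in non-treated cells (126 ± 5.23 CPM, SD, n = 3). With CDK4/6i+ATRA it was at least 1061-fold higher than in non-treated cells and at least 1108-fold higher than with CDK4/6i. DHRS3 was 1.51-fold higher with CDK4/6i+ATRA than with ATRA, at 190 ± 3.48 CPM (SD, n = 3, log2 0.59, SE 0.0454, edgeR adjusted p = 3.8e-16). No interaction is given, since both groups without ATRA were at the limit. The gene length in the table is 19241 bases, of which 1 exon takes 16429, so its level per kilobase was only 6.54 ± 0.272 CPM with ATRA.

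DHRS9 (chromosome 2, 169067077 to 169096167, plus strand), a retinol dehydrogenase that can supply retinal, had 47, 17 and 26 counts in non-treated cells and 65, 64 and 71 with CDK4/6i. It had 1438, 1427 and 1533 counts with ATRA and 997, 1055 and 1181 with CDK4/6i+ATRA. In TMM-normalized CPM the groups were ordered as non-treated (1.79 ± 0.922), CDK4/6i (3.81 ± 0.401), ATRA (85.5 ± 2.80) and CDK4/6i+ATRA (94.3 ± 3.12; SD, n = 3), with no overlap between neighbours. DHRS9 rose 47.6-fold with ATRA (log2 5.57, SE 0.109, edgeR adjusted p = 1.3e-40) and 52.6-fold with CDK4/6i+ATRA (log2 5.72, SE 0.110, edgeR adjusted p = 1.6e-41). CDK4/6i alone raised it 2.12-fold (log2 1.08, SE 0.197, edgeR adjusted p = 5.9e-06). ATRA changed DHRS9 less on the log2 scale in CDK4/6i-treated cells, by 4.63, and the interaction was -0.94 (SE 0.207, edgeR adjusted p = 1.4e-04). The interaction was -1.43 without non-treated replicate 1, which had the 47 counts, and -0.70 without non-treated replicate 2. The difference of 0.14 between CDK4/6i+ATRA and ATRA had an edgeR adjusted p of 0.0313, but it was 0.13 with an adjusted p of 0.0658 by DESeq2 and -0.16 with an adjusted p of 0.0214 with library size alone, and its direction is therefore not settled. Without ATRA replicates 2 or 3 or CDK4/6i+ATRA replicates 2 or 3, it was 0.12, 0.13, 0.14 and 0.12, with adjusted p-values from 0.0723 to 0.132. Over all alternatives the highest edgeR adjusted p of this difference was 0.604.

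RDH10 (chromosome 8, plus strand), the retinol dehydrogenase of embryonic retinoic acid synthesis, had 135, 135 and 183 counts in non-treated cells and 174, 116 and 135 with CDK4/6i. It had 78, 78 and 90 counts with ATRA and 30, 28 and 52 with CDK4/6i+ATRA. The ATRA-containing groups lay below the others, and the non-treated and CDK4/6i groups overlapped. RDH10 fell by 0.91 on the log2 scale with ATRA (SE 0.151, edgeR adjusted p = 6.4e-07) and fell by 1.48 with CDK4/6i+ATRA (SE 0.178, edgeR adjusted p = 1.8e-10). With CDK4/6i the log2 change was -0.16 (95% confidence interval -0.44 to 0.12, edgeR adjusted p = 0.336). From ATRA to CDK4/6i+ATRA it fell by 0.57 (SE 0.196, edgeR adjusted p = 0.00851), but fell by 0.43 with an adjusted p of 0.0743 without CDK4/6i+ATRA replicate 2 and fell by 0.87 without CDK4/6i+ATRA replicate 3. The interaction of -0.41 (95% confidence interval -0.90 to 0.07) had an edgeR adjusted p of 0.152, and was -0.70 with an adjusted p of 0.0219 without CDK4/6i+ATRA replicate 3. DHRS9 and RDH10, which catalyse the same step, thus moved in opposite directions with ATRA.

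**Figure D4:**
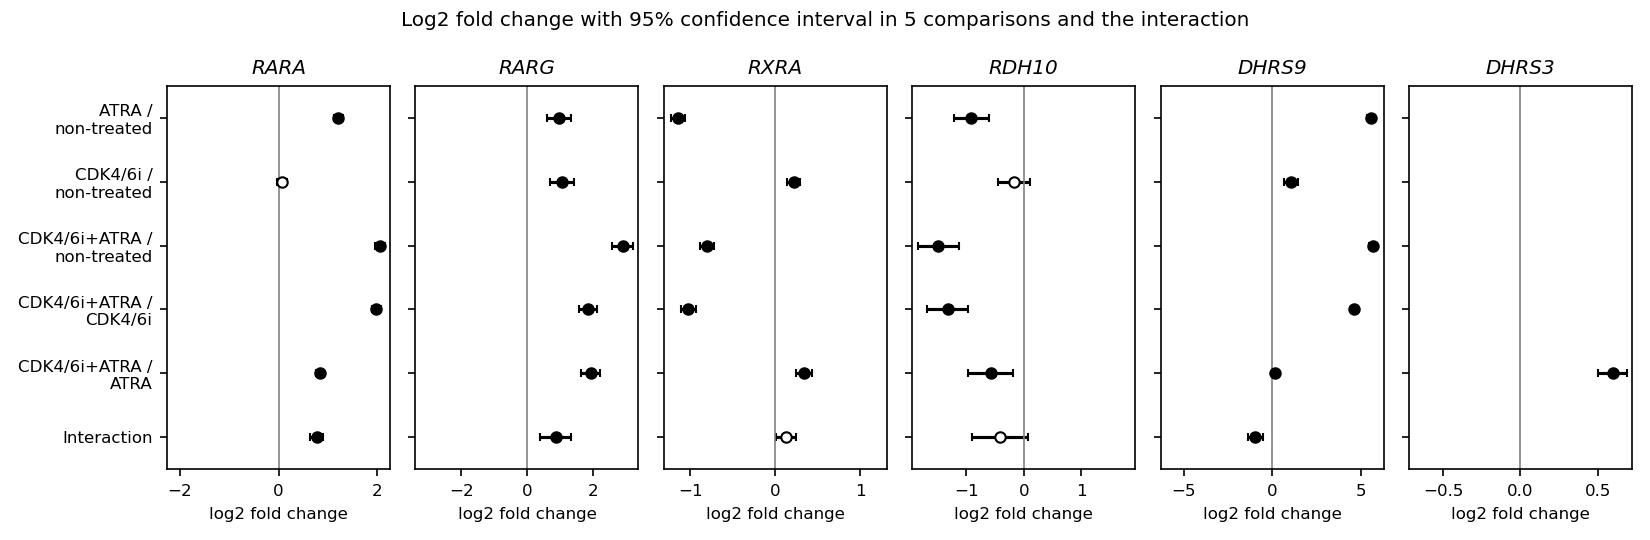
Log2 fold change (horizontal axis, a separate scale for each gene) of the 6 tested genes in 5 comparisons and of the interaction, with 95% confidence intervals; filled points passed an edgeR adjusted p of 0.05 and open points did not. DHRS3 is drawn only for CDK4/6i+ATRA against ATRA (0.59), since a group at the limit of detection enters its other comparisons.

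On the interaction, 3 of the 5 genes with a value were called (RARA and RARG positive, DHRS9 negative), against 51.4% of all genes (24.5% positive and 27.0% negative). With library size alone, the values against ATRA were 0.54 for RARA, 1.63 for RARG, 0.29 for DHRS3 and -0.88 for RDH10, all still past the threshold. The interaction was then 0.45 for RARA and 0.56 for RARG.

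Per kilobase, the order of the 10 genes differed between groups. In non-treated cells it was RXRA (23.0 ± 1.05 CPM per kilobase), RARA (3.66 ± 0.124), RDH10 (2.26 ± 0.297), RARG (0.627 ± 0.0133) and DHRS9 (0.468 ± 0.242; SD, n = 3), followed by CRABP2, RARB and the genes at the limit, and the ranges of RARG and DHRS9 overlapped. With CDK4/6i the first 5 genes kept that order. With ATRA, DHRS9 was first (22.4 ± 0.735), followed by RXRA (10.4 ± 0.327), RARA (8.51 ± 0.405), DHRS3 (6.54 ± 0.272), RARG (1.24 ± 0.104) and RDH10 (1.21 ± 0.0541), of which RARG and RDH10 did not differ beyond their spread. This order rests on the lengths, since in CPM DHRS3 had the highest mean (126), before RARA (103), DHRS9 (85.5) and RXRA (76.2). In CDK4/6i+ATRA-treated cells, DHRS9 (24.7 ± 0.817) was followed by RARA (15.2 ± 0.257), RXRA (13.1 ± 0.268), DHRS3 (9.88 ± 0.181) and RARG (4.76 ± 0.0386), with RDH10 at 0.803 ± 0.246. That order too rests on the lengths, since in CPM DHRS3 had the highest mean (190), before RARA (185), RXRA (96.4) and DHRS9 (94.3).

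The other genes of the pathway were taken as 48 genes in lists compiled by role, the first 2 of which complete the receptors. RXRG had no count in any library. RXRB, listed on 6 contigs, had 7 to 26 counts per library, and it passed the threshold only between CDK4/6i+ATRA-treated and non-treated cells (log2 1.04, SE 0.412, edgeR adjusted p = 0.0198). That call was lost with library size alone (log2 0.77, adjusted p = 0.0767), with no filter on low counts, and without CDK4/6i+ATRA replicate 1 or non-treated replicate 2 (adjusted p = 0.0673 and 0.0862). Of 6 genes of retinoid binding and uptake, 2 were tested. STRA6, the membrane receptor that takes up retinol, passed the filter through the ATRA-containing groups alone. It had no count in non-treated cells and rose to 21, 15 and 29 counts with ATRA and to 118, 101 and 132 with CDK4/6i+ATRA, at least 7.02-fold and 57.2-fold above non-treated cells. FABP5, which binds retinoic acid and fatty acids, had a log2 change of -1.34 with ATRA and of -2.27 with CDK4/6i+ATRA, both past the threshold (SE of the latter 0.0722, edgeR adjusted p = 4.0e-32). STRA6, and below DGAT1, DHRS4, GPS2 and ASB2, are listed on 2 contigs each, so reads may be lost or split. LRAT, the main retinol esterifying enzyme, had no count in any library, while DGAT1 and PNPLA4, which act on retinyl esters among other lipids, both rose with CDK4/6i (log2 0.63 and 0.49), beside 28.3% of all genes tested. DGAT1 fell with ATRA (log2 -0.50), beside 35.5% of all genes. PNPLA4 had a log2 change of -0.30 with ATRA whose libraries overlapped the non-treated ones, and its call was lost by DESeq2 (adjusted p = 0.0700), within the groups compared alone (adjusted p = 0.0572) and without ATRA replicate 3, non-treated replicate 1 or non-treated replicate 2 (adjusted p = 0.109, 0.136 and 0.0596).

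Among 11 other retinol and retinal enzymes, 4 were tested, of which AKR1C3 and RDH12 passed the filter through the ATRA-containing groups alone. The other 2, RDH11 and DHRS4, were both called with CDK4/6i+ATRA, in opposite directions, against 41.0% of all genes higher and 40.7% lower. AKR1C3, a ketoreductase that accepts retinal, went from 4, 2 and 3 counts to 354, 402 and 350 with ATRA. RDH11, a retinal reductase, rose by 2.04 on the log2 scale with CDK4/6i+ATRA (SE 0.0639, edgeR adjusted p = 2.1e-32) and DHRS4 fell by 2.02 (SE 0.252, edgeR adjusted p = 5.6e-10). RDH12, a further retinal reductase, had no count without ATRA and 25, 26 and 22 counts with CDK4/6i+ATRA, at least 12.5-fold above CDK4/6i-treated cells. Of the 5 genes of retinoic acid synthesis and clearance outside the 10 (ALDH1A1, ALDH1A2, ALDH1A3, ALDH8A1 and CYP26C1), 0 passed the expression filter, so no transcript of the last step of retinoic acid synthesis was testable. ALDH1A2 had the most, with 7 to 12 counts per library in the ATRA-containing groups and 0 to 4 in the others.

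All 6 RAR coactivators were tested, and 5 rose and 1 fell with ATRA (32.1% and 35.5% of all genes tested), with a median log2 change of 0.68 against -0.03 for all genes tested. NCOA3 rose most, by 2.92 with ATRA and 3.49 with CDK4/6i+ATRA (SE 0.0455, edgeR adjusted p = 9.8e-49). NCOA2 (1.67), CREBBP (1.11) and EP300 (1.01) also rose with CDK4/6i+ATRA on the log2 scale. Of 8 corepressors, 7 were tested, with 3 higher and 2 lower with ATRA and a median of 0.02, beside the same shares of all genes. NRIP1, a ligand-dependent corepressor, rose by 1.85 with ATRA and 3.41 with CDK4/6i+ATRA (SE 0.0492, edgeR adjusted p = 7.6e-47), NCOR1 rose by 0.53 and GPS2 fell by 0.66 with CDK4/6i+ATRA, and TBL1X fell by 1.09 with ATRA. Of 7 known retinoic acid target genes, 6 were tested, of which TGM2, CD38 and PLAAT4 passed the filter through the ATRA-containing groups alone, so that their rise was fixed by it. The other 3 (CEBPE, ASB2 and ICAM1) rose with ATRA, as did 32.1% of all genes tested. ICAM1, an adhesion molecule, had 9 to 10 counts in non-treated cells and rose by 8.10 on the log2 scale with ATRA and 10.83 with CDK4/6i+ATRA, and ASB2 rose by 5.49 with ATRA. TGM2 was at least 11297-fold and PLAAT4 at least 26.0-fold above non-treated cells with ATRA. CD38 went from 8, 0 and 1 counts to 6618, 6840 and 7091 with ATRA, whereas RARRES1 had at most 3 counts in a library.

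**Figure D5:**
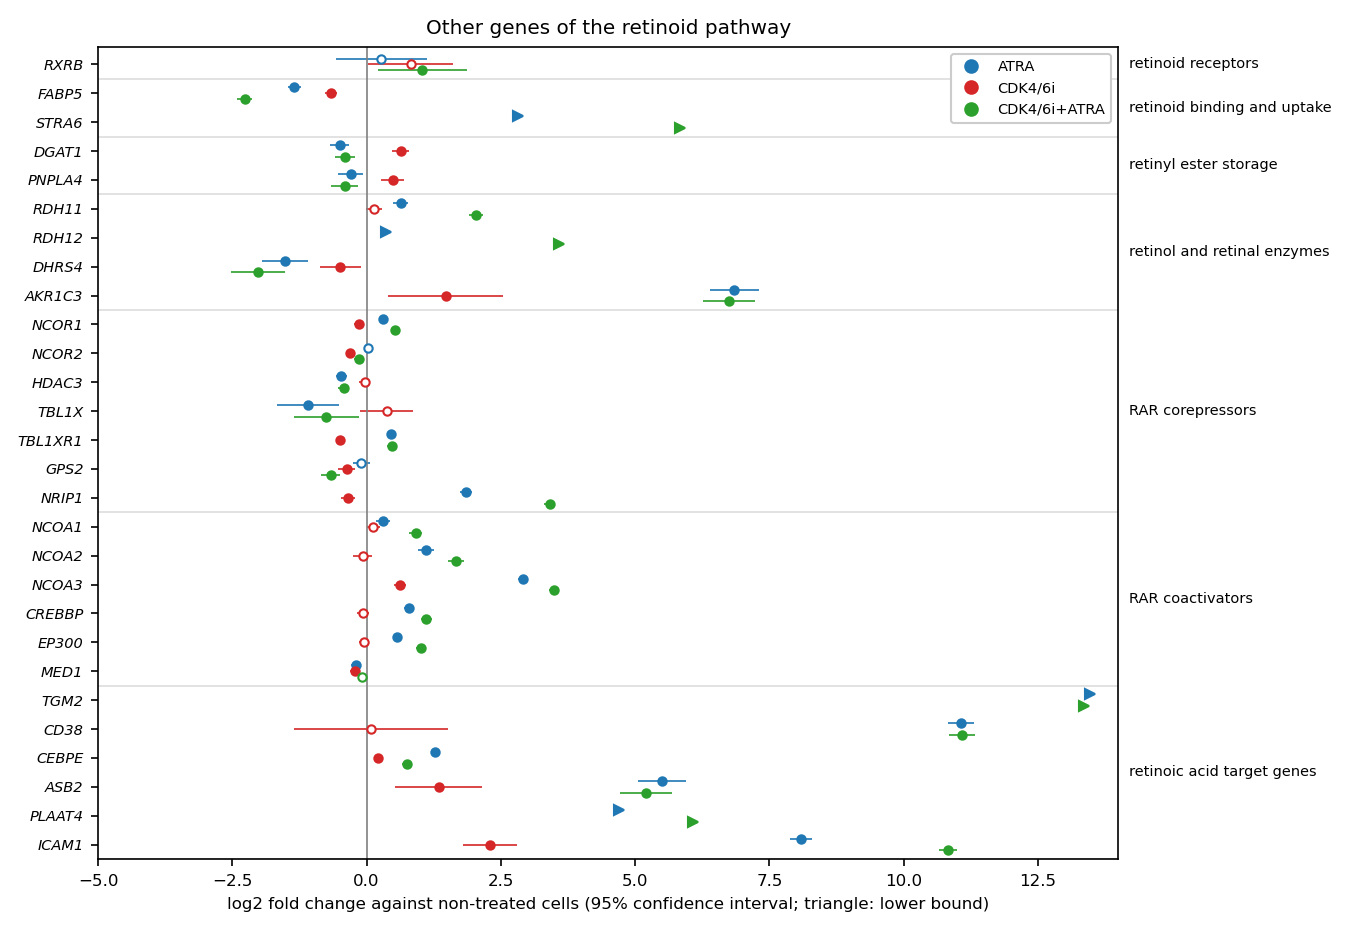
Log2 fold change against non-treated cells (horizontal axis) of the tested genes of the wider pathway, grouped by list, with 95% confidence intervals; blue is ATRA, red CDK4/6i and green CDK4/6i+ATRA. Filled points passed an edgeR adjusted p of 0.05, open points did not, and triangles are lower bounds against a group at the limit of detection. The retinoic acid targets lie to the right with ATRA, up to the bound for TGM2 (at least 11297-fold). For TGM2, CD38 and PLAAT4 that side was fixed by the expression filter.

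Among 9294 genes with a mean of at least 5 CPM over all libraries, the genes most like each tested gene were found by Pearson's r of log2(CPM + 1) over the 12 libraries. These libraries fall into 4 separate groups, so r mainly follows the 4 group means. RARA was most like SLC5A3 (r = 0.999), a myo-inositol transporter gene, and SMAD3 (r = 0.999), a TGF-beta signal transducer. SLC5A3 rose from 15.1 ± 0.381 CPM in non-treated cells to 115 ± 7.67 with ATRA and 454 ± 15.3 with CDK4/6i+ATRA (SD, n = 3), and stayed at 16.2 ± 1.10 with CDK4/6i. RARG was most like PCNX1 (r = 0.997) and TNFSF14 (r = 0.997), and RXRA was most like GNPDA1 (r = 0.994) and TOMM20 (r = 0.993), an import receptor of the outer mitochondrial membrane. DHRS3 was most like TSPAN14 (r = 1.000) and GNG2 (r = 1.000), with Spearman's rho of 0.899 and 0.870. GNG2 rose from 1.95 ± 0.135 CPM in non-treated cells to 433 ± 5.79 with ATRA. TSPAN14 was already at 164 ± 1.23 CPM and rose to 450 ± 6.01, so r does not measure the size of a change. For DHRS9 the closest were ADGRG3 (r = 0.998) and NLRP12 (r = 0.998), and for RDH10 they were TIMM8A (r = 0.975) and HILPDA (r = 0.974).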

How the data were processed

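RNA-Seq of HL60 cells covered 12 libraries, 3 in each of 4 groups taken from the labels. Per the paper's methods and the submitters' processing notes, libraries were directional, reads were trimmed with Trimmomatic 0.33 and aligned to hg38 with STAR 2.7.11a under the NCBI RefSeq annotation, and gene counts are credited to RSEM. The authors deposited raw counts as whole numbers, with gene length, exon positions and strand in a layout that featureCounts writes; whether strand was used is not given in the sources used here. Reads shared by near-identical genes may therefore be lost or split. The 10 genes and all lists were chosen with earlier results of these data known. A further gene, left out of the lists and their counts, is not reported here.

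Genes were filtered with filterByExpr, normalized by TMM and tested with the quasi-likelihood F test of edgeR 4.0.16 (R 4.3.3) on 4 group means, two-sided, with 8 residual degrees of freedom and Benjamini-Hochberg adjustment over 13318 genes. The authors' own test was DESeq2, which was used here (1.42.0) as an alternative. Libraries of a group differed by more than sampling noise (chi-square per degree of freedom 1.85 to 6.81). Levels between genes were divided by the length in the table, and confidence intervals are at 95%. Against a group at or under 3 counts in every library, a fold is the mean CPM divided by the mean CPM of 3 counts. All 10 genes were described, with up to 4 genes of each list by the size of the change, and the 2 genes most like each tested gene. ASB2, and genes given a raw count outside this rule, were chosen after their values were seen. A gene was taken to pass the filter through the ATRA-containing groups alone where it failed the same rule in the other libraries. The tests were also tested on simulated data. The counts of calls, the log2 changes of the tested genes among the 10 and those printed for the other pathway genes (the latter added after seeing the data) were recomputed with DESeq2, with its size factors in edgeR, with library size alone, with 10 or more counts required of each library, with no filter, with a replicate block, within the groups compared alone, and with each library left out, and the motif and likeness results with a half-site spacing of 2 or Spearman's correlation. The window of 5000 bases was added after seeing the data. Member promoters were identical to hg38 at 21 of 21 starts. Exact tests used scipy 1.17.1.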

Additional observations from a re-analysis of the deposited data

Results flagged for a closer look

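For 3 genes the effect of ATRA differed between cells with and without CDK4/6i by the interaction term of edgeR's quasi-likelihood test. RARA had an interaction of 0.77 on the log2 scale (edgeR adjusted p = 8.0e-14), with an ATRA effect of 1.21 without and 1.98 with CDK4/6i. For RARG it was 0.88 (edgeR adjusted p = 0.00165), with ATRA effects of 0.98 and 1.86. For DHRS9 it was -0.94 (edgeR adjusted p = 1.4e-04), with ATRA effects of 5.57 and 4.63 and a non-treated group of only 17 to 47 counts. An interaction was called for 51.4% of all genes tested, so these calls do not set the 3 genes apart.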

How the results depend on the processing

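Of the values of the 6 tested genes, motif shares and correlations recomputed under the alternatives, 630 kept their direction and side of the threshold, 10 lost the threshold, 3 passed it, 2 reversed and 6 without a test moved. The reversals came with library size alone, for DHRS9 between CDK4/6i+ATRA and ATRA (-0.16) and for the RXRA interaction (-0.20), and that setting called all 5 genes with a value on the interaction in place of 3. Leaving out each library in turn gave 5 to 5 called genes for ATRA, CDK4/6i+ATRA against non-treated and CDK4/6i+ATRA against CDK4/6i, 3 to 3 for CDK4/6i, 4 to 6 for CDK4/6i+ATRA against ATRA and 3 to 4 for the interaction, with DHRS3 counted only for CDK4/6i+ATRA against ATRA. The calls of all genes ranged from 8613 to 9161, 7000 to 7620, 10678 to 11102, 10225 to 10657, 8909 to 9425 and 6503 to 6693 for ATRA, CDK4/6i, CDK4/6i+ATRA against non-treated, against CDK4/6i and against ATRA, and the interaction. DHRS3 dropped out with at least 10 counts in every library. A spacing of 2 in place of 5 was found in the windows of 0.0399% of starts and within 5000 bases of 32.5% of starts, and Spearman's rho of the genes most like each tested gene was 0.846 to 0.979. Of 432 recomputed values of 23 log2 changes of the other pathway genes, 423 kept their direction and side of the threshold and 9 lost the threshold, for RXRB and PNPLA4. The receptor ratios, list counts and lower bounds were not recomputed. The replicate numbers did not pair the libraries (r of -0.114 to 0.0702 between deviations of same-numbered libraries). With a replicate block, 8915 genes were called with ATRA and no call of the tested genes changed. Low counts limit RARB, CRABP2, CYP26A1 and CYP26B1, for which no change was testable at this depth.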
